A study of Homo sapiens with 12 samples.

Results

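miR-221 and miR-222 form a cluster of neighbouring miRNA hairpins on the X chromosome, each of which gives a 5p and a 3p mature arm. The cluster was chosen by name for its levels in these libraries, which were known beforehand, and it holds 4 of the 1133 miRNA in the count table, namely hsa-miR-221-3p, hsa-miR-221-5p, hsa-miR-222-3p and hsa-miR-222-5p, written without the prefix hsa from here on. Levels and fold changes of the 4 arms across the EV groups are therefore given as a description, with no test.

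Small RNA was sequenced from extracellular vesicles (EV) that the human induced pluripotent stem cell line iPS(IMR90)-4, an established line, had released into its medium before and during differentiation to cardiomyocytes. There were 12 libraries in 4 EV groups, each with 3 libraries from independent cultures. hiPSC-EV came from undifferentiated cells at day 0, in medium conditioned for 24 h. CPC-EV came from cardiac progenitor cells at day 6, with 72 h of conditioning. CMi-EV came from immature cardiomyocytes at day 15 and CMm-EV from more mature cardiomyocytes at day 35, which were grown as aggregates and conditioned their medium for 48 h. The cells of hiPSC-EV and CPC-EV were grown as monolayers. The medium of CMm-EV was a maturation medium with galactose and fatty acids and without glucose. The stage and the medium changed together between groups, as did the hours of conditioning except between CMi-EV and CMm-EV. Between CPC-EV and CMi-EV the form of culture, from monolayer to aggregates, changed as well. The parts of all these in a difference cannot be told apart. In a bulk preparation, fewer vesicles that carry a miRNA and less of it per vesicle cannot be told apart either. Counts on miRNA ranged from 703418 to 5598296 per library in hiPSC-EV, from 1539043 to 3380609 in CPC-EV, from 1364736 to 2163511 in CMi-EV and from 984868 to 6272456 in CMm-EV.

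miRNA guide Argonaute proteins to messenger RNA through the seed, bases 2 to 8 from their 5′ end, and the messenger is then repressed. miR-221 and miR-222 arise from a shared primary transcript and are best known as repressors of CDKN1B and CDKN1C, inhibitors of the cell cycle, and of the receptor KIT. They are abundant in many proliferating cells, and in the vessel wall they are studied for their roles in endothelial cells and smooth muscle cells.

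Sequences were matched by name in RefSeq on GRCh38.p14, where 3 of the 4 arms were found. They are shown because both 3p arms carry the same seed, while the rest of the sequence tells their reads apart. Capitals mark the seed.
miR-221-3p: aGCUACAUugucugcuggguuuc
miR-222-3p: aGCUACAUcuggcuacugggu
miR-222-5p: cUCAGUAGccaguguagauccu
The 3p arms were identical over the first 8 bases, and over 11 of 21 positions when set side by side without gaps. Of 2545 mature miRNA in the RefSeq table, 2 carried this seed, and these were miR-221-3p and miR-222-3p themselves. All 48 values of the 4 arms in the 12 libraries were whole numbers, exactly and with no tolerance, whereas 9.11% of the non-zero miRNA values in the table were not, as happens when a read is split between miRNA.

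On the minus strand of hg38, miR-221-3p lies at chrX:45746180-45746202, miR-222-3p at chrX:45747036-45747056 and miR-222-5p at chrX:45747073-45747094. The MIR221 hairpin (chrX:45746157-45746266) and the MIR222 hairpin (chrX:45747015-45747124) are separated by 748 bases, and both lie within the long noncoding gene MIR222HG (chrX:45745210-45770274, GENCODE v44). The MIR222 hairpin overlaps none of the 6 annotated exons of that gene, and the MIR221 hairpin overlaps an exon by 24 bases.

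Levels are given as CPM, counts scaled to the total miRNA counts of their library, with TMM factors (trimmed mean of M-values) from all 12 libraries. miR-222-3p, the most abundant of the 4 arms in all 12 libraries, was present at 15555, 14839 and 13731 CPM in hiPSC-EV 1, 2 and 3 and at 3043, 3801 and 2410 CPM in CPC-EV 1, 2 and 3. In CMi-EV it was at 240, 433 and 423 CPM, and in CMm-EV at 260, 706 and 528 CPM. Every hiPSC-EV library was above every CPC-EV library, and every CPC-EV library above the 6 cardiomyocyte libraries, while CMi-EV and CMm-EV overlapped. In hiPSC-EV this arm ranked 11, 12 and 13 among the miRNA of its library, and in CMi-EV it ranked 98, 76 and 83.

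miR-221-3p, which has the same seed, was at 1973, 1984 and 4024 CPM in hiPSC-EV and at 311, 374 and 162 CPM in CPC-EV. It was at 86.6, 117 and 102 CPM in CMi-EV and at 0, 32.0 and 57.1 CPM in CMm-EV. Its 4 groups did not overlap and followed the order of the days, from hiPSC-EV down to CMm-EV. CMm-EV 1 had no read of it, where 3 counts, taken as the floor for a count of 0, would be 3.63 CPM. This floor, like the intervals on shares given further on, covers counting error only.

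miR-221-5p, the other arm of the miR-221 hairpin, was at 1759, 1812 and 2132 CPM in hiPSC-EV and at 576, 605 and 463 CPM in CPC-EV. In CMi-EV it was at 111, 195 and 135 CPM, and in CMm-EV at 58.1, 174 and 63.2 CPM. As with miR-222-3p, the groups separated down to CMi-EV, which overlapped with CMm-EV. As a plain share of miRNA counts, with no TMM factor, miR-221-5p did not overlap between them. It was at 0.0116% or more in CMi-EV and at 0.0105% or less in CMm-EV. In CMm-EV 1, the library without miR-221-3p, miR-221-5p had 48 counts.

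miR-222-5p, the minor arm of its hairpin, was at 304, 72.2 and 64.0 CPM in hiPSC-EV, where replicate 1 stood above the other 2 libraries. It was at 92.6, 102 and 45.2 CPM in CPC-EV, at 31.2, 0 and 29.6 CPM in CMi-EV, and at 12.1, 51.8 and 27.7 CPM in CMm-EV. Each group overlapped with the next in order of level, while hiPSC-EV overlapped with neither CMm-EV nor CMi-EV, and CPC-EV did not overlap with CMi-EV.

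As mean ± SD with n = 3, the 4 arms summed to 19417 ± 639 CPM in hiPSC-EV, 3995 ± 902 CPM in CPC-EV, 634 ± 146 CPM in CMi-EV and 657 ± 317 CPM in CMm-EV. By these TMM-normalized levels the fall lay between day 0 and day 15, and the 2 cardiomyocyte groups differed by less than their SD. As a plain share of miRNA counts, with no TMM factor, the 4 arms fell further, from 0.0679% ± 0.0176 in CMi-EV to 0.0395% ± 0.0163 in CMm-EV (mean ± SD, n = 3), with ranges that overlapped. The course between the cardiomyocyte groups thus depends on the scaling. As a share of all miRNA counts, the 4 arms made up from 0.0277% in CMm-EV 1 (95% exact interval 0.0245% to 0.0312%) to 2.41% in hiPSC-EV 1 (2.37% to 2.44%).

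**Figure D1:**
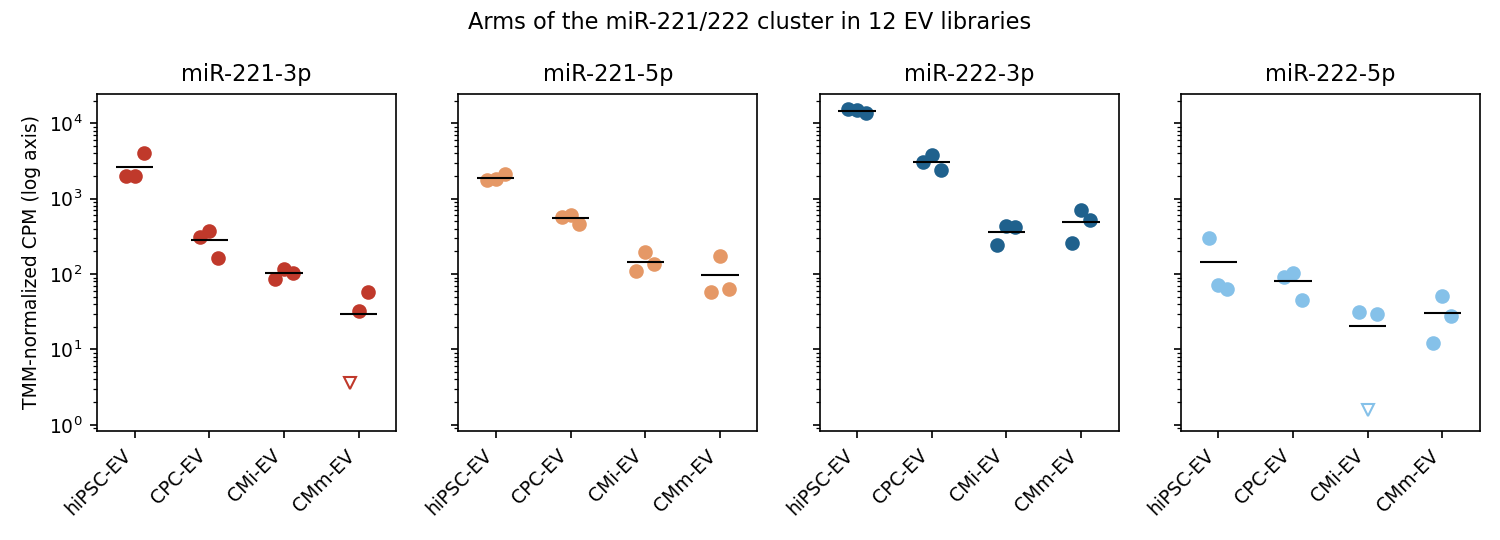
TMM-normalized CPM on a log axis (vertical) of the 4 arms in the 4 EV groups (horizontal), with a point for each library, a line at the mean of 3 libraries (a count of 0 entered as 0), and an open triangle at the floor of 3 counts for a library without a read. miR-222-3p went from 13731 CPM or more in hiPSC-EV to 706 CPM or less in both cardiomyocyte groups, and the triangles are miR-221-3p in CMm-EV 1 and miR-222-5p in CMi-EV 2.

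Fold changes came from edgeR fits of each comparison to its own 6 libraries, so that they need not equal the ratio of the CPM above. All 4 arms passed the minimum of 5 CPM in each library of at least 1 group in all 4 comparisons. An arm that passed through 1 group alone tends to be higher there. miR-222-5p passed only through CPC-EV in CMi-EV against CPC-EV and only through CMm-EV in CMm-EV against CMi-EV. miR-221-3p passed only through CMi-EV in CMm-EV against CMi-EV and only through hiPSC-EV over both ends. The 3 comparisons between successive stages share groups with one another and with the comparison of both ends, so their values are given side by side.

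Between hiPSC-EV and CPC-EV, miR-221-3p changed by a log2 fold change of -2.83 ± 0.37 (SE), miR-222-3p by -1.86 ± 0.19 and miR-221-5p by -1.38 ± 0.20. miR-222-5p had a log2 fold change of -0.56 ± 0.76, which turned to 0.66 without hiPSC-EV 1. The median over the 338 miRNA tested was -0.27, so that relative to it the first 3 arms were lower by log2 values of -2.56, -1.59 and -1.11. From the CPM means, the log2 ratio of miR-222-3p was -2.25.

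Between CPC-EV and CMi-EV the order of the arms was another. miR-222-3p had the largest change of the 4, with a log2 fold change of -3.10 ± 0.25, and 26 of the 292 miRNA tested had a lower value. miR-221-5p was at -1.92 ± 0.29, miR-221-3p at -1.48 ± 0.40 and miR-222-5p at -1.97 ± 1.45, against a median of -0.05 over all miRNA tested.

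Between CMi-EV and CMm-EV, no arm had a log2 fold change beyond 1.5 times its SE. The values were 0.29 ± 0.46 for miR-222-3p, -0.74 ± 0.66 for miR-221-5p, -1.91 ± 1.30 for miR-221-3p and 0.43 ± 1.49 for miR-222-5p, with a median of -0.29 over 247 miRNA. With library size as the only scaling, miR-222-3p went to -0.38 and miR-222-5p to -0.19, so that no direction can be given for them. Without CMm-EV 2, miR-222-3p was at -0.07 and miR-222-5p at -0.20, and without CMi-EV 2 miR-222-5p was at -0.18. miR-221-5p was at -1.46 without CMm-EV 2 and at -1.36 with library size only, and miR-221-3p was at -2.77 without CMm-EV 3 and also with library size only.

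Over both ends, CMm-EV against hiPSC-EV, the log2 fold changes were -6.82 ± 1.04 for miR-221-3p, -5.19 ± 0.38 for miR-222-3p, -4.56 ± 0.51 for miR-221-5p and -2.48 ± 0.83 for miR-222-5p. With a library left out or with library size only, some of these values moved by more than 1.5 times in the fold, miR-221-3p to -5.94 without CMm-EV 1, miR-221-5p to -5.24 without CMm-EV 2, and miR-222-5p to -1.38 without hiPSC-EV 1, -3.13 without CMm-EV 2 and -3.16 with library size only. The vesicles of undifferentiated cells thus carried miR-221-3p, miR-221-5p and miR-222-3p at the highest level of the 4 groups, and miR-222-5p at a higher level than CMm-EV, while its lead over CPC-EV by the group means rested on hiPSC-EV 1. Many other miRNA also fell over this interval, and the median over 336 miRNA tested was -1.53. Of these, 78 had a lower log2 fold change than miR-222-3p and 68 a lower one than miR-221-3p.

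**Figure D2:**
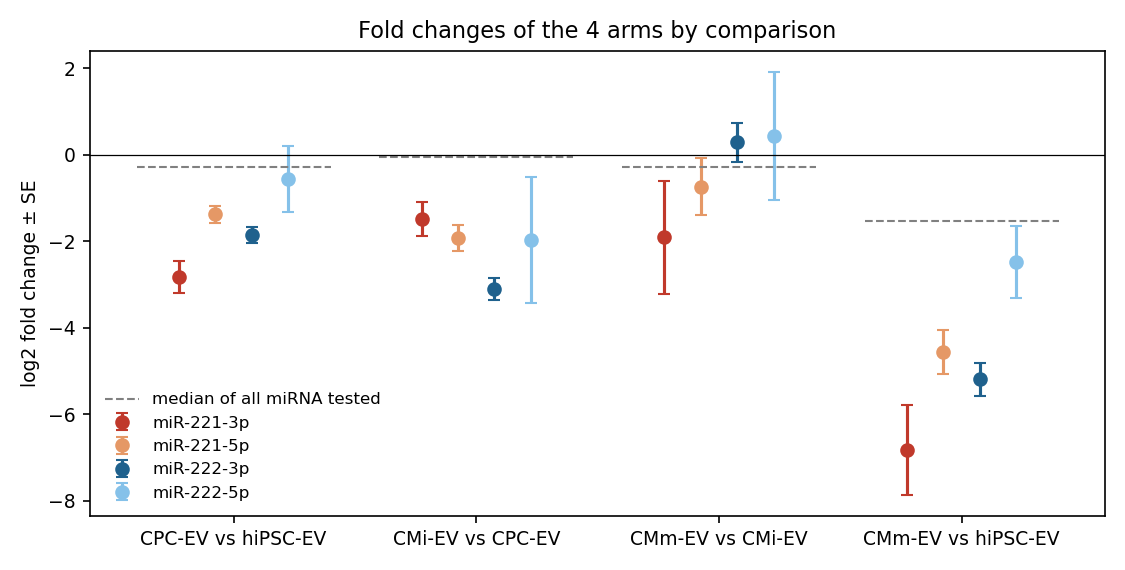
log2 fold change ± SE (vertical) of each arm in the 4 comparisons (horizontal), with a dashed line at the median of all miRNA tested in that comparison. miR-221-3p lies lowest from hiPSC-EV to CPC-EV at -2.83, miR-222-3p lowest from CPC-EV to CMi-EV at -3.10, and the bars of CMm-EV against CMi-EV are the widest.

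Ratios within a library do not depend on scaling between libraries. The first was the ratio of the 3p arms with the shared seed, miR-221-3p to miR-222-3p, as log2 of counts with 1 count added to each. It was -2.98, -2.90 and -1.77 in hiPSC-EV, -3.29, -3.34 and -3.89 in CPC-EV and -1.47, -1.88 and -2.05 in CMi-EV. In CMm-EV it was -7.75, -4.45 and -3.20, where the first value rests on the added count. miR-222-3p was in excess in every library, least so in CMi-EV and most in CMm-EV by the group means, which were -2.55, -3.51, -1.80 and -5.14 from hiPSC-EV to CMm-EV.

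The mean of CMm-EV rests in part on CMm-EV 1, and without this library, left out after seeing the data, it was -3.83 (n = 2), against -3.51 in CPC-EV. Every CMi-EV library lay above every CPC-EV library in this ratio. hiPSC-EV overlapped with CMi-EV, and CPC-EV lay within the range of CMm-EV. Both counts in the ratio belong to the members, so the ratio is a description over the 4 groups, with no test.

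The other ratio was that of the 2 arms of the miR-221 hairpin. The log2 ratio of miR-221-3p to miR-221-5p was 0.17, 0.13 and 0.92 in hiPSC-EV and -0.89, -0.69 and -1.51 in CPC-EV. It was -0.35, -0.73 and -0.40 in CMi-EV and -5.61, -2.43 and -0.15 in CMm-EV. The 3p arm was thus the more abundant in 3 of 3 hiPSC-EV libraries and the 5p arm in 9 of the 9 other libraries. In CMm-EV 3 the 3p arm made up 47.5% of both arms (95% exact interval 41.6% to 53.3%), an interval that includes equal arms, and in hiPSC-EV 2 it made up 52.3% (51.3% to 53.3%). In CMm-EV 1 it was 0 of 48 counts, with an upper limit of 7.40% by the same interval.

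CMm-EV was widely spread in this ratio, with a SD of 2.75 against 0.44 or less in the other groups. Its mean was -2.73, and -1.29 without CMm-EV 1 (n = 2), while the means were 0.40, -1.03 and -0.50 in hiPSC-EV, CPC-EV and CMi-EV. For miR-222, the 3p arm made up 88.5% or more of both arms in all 12 libraries, with 99.0% ± 0.835 (SD, n = 3) in hiPSC-EV and 94.6% ± 1.25 in CMm-EV.

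**Figure D3:**
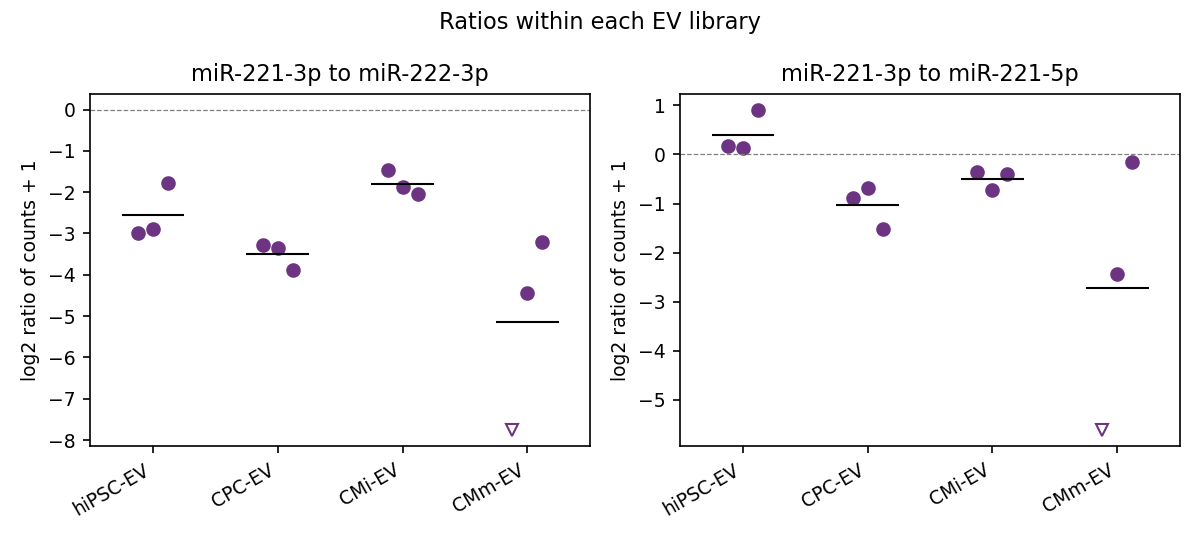
log2 ratio of counts with 1 count added (vertical) in the 4 EV groups (horizontal), on the left for miR-221-3p to miR-222-3p and on the right for miR-221-3p to miR-221-5p, with a point for each library, a line at the group mean and an open triangle for CMm-EV 1, which had no read of miR-221-3p. On the right the 3 hiPSC-EV libraries lie above 0 and the 9 others below it.

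Among all expressed miRNA, the profiles most like those of the 3p arms were found by the root mean square difference of centred log2(CPM + 1) over the 12 libraries. For miR-222-3p the closest was miR-221-5p, its neighbour in the cluster, at 0.67, against a median of 2.37 over all expressed miRNA. It was followed by miR-302e (0.69), miR-20a-5p (0.98), miR-3130-5p (1.00) and miR-335-3p (1.03). miR-302e and miR-3130-5p had means of 18.0 and 10.4 CPM in hiPSC-EV and rest on few reads, and the reads of miR-302e can be shared with the near-identical miR-302 sequences. miR-20a-5p, a member of the miR-17-92 cluster, had means of 3140, 825, 285 and 96.6 CPM from hiPSC-EV to CMm-EV.

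For miR-221-3p the closest were miR-96-5p (0.88), miR-93-5p (0.90), miR-302a-3p (1.06), miR-7-5p (1.12) and miR-204-5p (1.24), against a median of 2.88. miR-96-5p, for one, had means of 1197, 305, 40.1 and 8.50 CPM from hiPSC-EV to CMm-EV. miR-222-3p came in place 14 and miR-221-5p in place 15 for this arm, with differences of 1.67 and 1.69. These places rest on the count of 0 in CMm-EV 1. Without this library, left out after seeing the data, the difference to miR-221-3p was 0.85 for miR-221-5p (place 4) and 0.89 for miR-222-3p (place 9), and the closest were miR-20a-5p (0.64), miR-363-3p (0.66) and miR-335-3p (0.81). For miR-222-3p, miR-221-5p then came in place 2 (0.70) after miR-302e (0.68). Over all 12 libraries miR-222-5p was in place 166 for miR-221-3p and in place 73 for miR-222-3p. For miR-222-3p, miR-221-3p with the same seed was in place 65 (1.67), and in place 4 (0.89) without CMm-EV 1.

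The cluster was set beside 2 lists of miRNA. As background, DE miRNA (FDR of 0.05 or less, and at least 2-fold higher or lower) were 39 higher (11.5%) and 54 lower (16.0%) of 338 in CPC-EV against hiPSC-EV, and 42 higher (14.4%) and 41 lower (14.0%) of 292 in CMi-EV against CPC-EV. In CMm-EV against CMi-EV, 16 were higher (6.48%) and 25 lower (10.1%) of 247, and in CMm-EV against hiPSC-EV, 180 of 336 were DE, with 54 higher (16.1%) and the rest lower (37.5%). A miRNA that passed the CPM minimum through 1 group alone tends to be higher there. Only through hiPSC-EV passed 82 of the 338 and 149 of the 336, while 67 of the 292 passed only through CPC-EV and 60 of the 247 only through CMi-EV. The later group alone let pass 43 of the 338, 36 of the 292, 22 of the 247 and 41 of the 336. The split moved with the scaling and with single libraries. Without hiPSC-EV 1 it was 40 higher and 89 lower in CPC-EV against hiPSC-EV, and without CPC-EV 3 it was 38 higher and 64 lower in CMi-EV against CPC-EV. With library size only, it was 31 higher and 56 lower in CMi-EV against CPC-EV and 10 higher and 42 lower in CMm-EV against CMi-EV, where the library totals behind the RPM gave 12 higher and 33 lower.

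The first list holds 14 arms of another X-linked miRNA group, in introns of CLCN5 at Xp11.23, whose first hairpin lies 4.26 Mb from MIR222. Of these arms 11 were in the count table, with miR-501-3p as the most abundant. In CPC-EV against hiPSC-EV, where the arms of miR-221 and the 3p arm of miR-222 were lower, 3 of 7 tested members rose, none fell, and the median was 1.87. miR-500a-3p rose by a log2 fold change of 1.93 ± 0.21 (edgeR, FDR = 0.000712), miR-501-3p by 1.87 ± 0.34 (edgeR, FDR = 0.00663) and miR-502-3p by 2.13 ± 0.50 (edgeR, FDR = 0.0174). The sequences of these 3 arms are nearly identical, so reads can be shared between them and the 3 rises may not be separate. The call of miR-502-3p was lost without CPC-EV 1 (edgeR, FDR = 0.0743) or CPC-EV 3 (edgeR, FDR = 0.0592).

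In CMi-EV against CPC-EV none of 7 tested members of this list passed, with a median of 0.43. In CMm-EV against CMi-EV 1 of 6 fell, with a median of -1.49, and 3 of the 6 had passed the CPM minimum only through CMi-EV. The member that fell was miR-500a-3p with -1.29 ± 0.34 (edgeR, FDR = 0.0457), which did not pass without CMi-EV 1, CMi-EV 2 or CMm-EV 2 (edgeR, FDR between 0.0574 and 0.110) and was at -0.99 without CMm-EV 1 and at -1.97 with library size only. Over both ends none of 6 passed, and the median was -0.26. The summed level of the list was 1800, 2458 and 4205 CPM in hiPSC-EV, 6711, 7121 and 7788 CPM in CPC-EV, 13338, 9582 and 7856 CPM in CMi-EV and 2502, 4467 and 6779 CPM in CMm-EV. By these TMM-normalized levels its highest libraries were those of CMi-EV, in which miR-222-3p was at 433 CPM or less. CMi-EV 3 and CPC-EV 3 were close, with TMM factors of 1.01 and 1.75, so that this order depends on the scaling.

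The other list holds 16 miRNA known from the vessel wall, all of them in the count table. By the mean over the 12 libraries miR-143-3p was the most abundant. Its group means were 305 CPM in hiPSC-EV, where miR-21-5p was highest (7426 CPM), and 2880 CPM in CPC-EV, where miR-27b-3p was highest (5709 CPM). In CPC-EV against hiPSC-EV 4 of 13 tested members rose and 2 fell, with a median of 0.11. miR-143-3p, of smooth muscle, rose by a log2 fold change of 3.69 ± 0.39 (edgeR, FDR = 0.000901), while miR-21-5p fell with a log2 fold change of -1.89 ± 0.24 (edgeR, FDR = 0.00155). miR-24-3p rose by 1.43 ± 0.29 (edgeR, FDR = 0.00939), but not with no filter (edgeR, FDR = 0.0593) or with the replicate number as a block (edgeR, FDR = 0.0624). miR-23b-3p rose by 1.51 ± 0.41 (edgeR, FDR = 0.0312), a call that was lost without hiPSC-EV 2, CPC-EV 1 or CPC-EV 3 (edgeR, FDR between 0.0618 and 0.102). The call was also lost with the library totals behind the RPM (edgeR, FDR = 0.0519), the filterByExpr filter (edgeR, FDR = 0.0628) and the replicate block (edgeR, FDR = 0.0952). The other member called lower, miR-296-5p, had a mean of 12.2 CPM in hiPSC-EV and no read in CPC-EV. It passed the CPM minimum only through hiPSC-EV, and its call was lost with filterByExpr (edgeR, FDR = 0.0595), no filter (edgeR, FDR = 0.310) or the replicate block (edgeR, FDR = 0.292), so nothing is read from it.

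In CMi-EV against CPC-EV 5 of 12 tested members of the vascular list rose and none fell, with a median of 0.96, and 3 of the 5 were miR-143-3p (3.85 ± 0.36, edgeR, FDR = 0.000789), miR-145-5p (2.35 ± 0.33, edgeR, FDR = 0.00282) and miR-21-5p (1.72 ± 0.25, edgeR, FDR = 0.00304). The other 2 were miR-24-3p (1.13 ± 0.18, edgeR, FDR = 0.00350), whose call was lost with library size only at 0.65 (edgeR, FDR = 0.0639), and miR-23a-3p (1.18 ± 0.33, edgeR, FDR = 0.0345). The call of miR-23a-3p was lost without CPC-EV 1, CMi-EV 1 or CMi-EV 2 (edgeR, FDR between 0.0774 and 0.102), and its log2 fold change was 0.89 without CPC-EV 3. It was also lost with library size only, filterByExpr, no filter or the replicate block (edgeR, FDR between 0.0541 and 0.123). In the same comparison all 4 arms of the cluster had negative values, as given above. Whether the arms and these miRNA differ in their change was not tested.

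In CMm-EV against CMi-EV 2 of 11 members rose and none fell, with a median of 0.51. They were let-7f-5p (4.33 ± 0.43, edgeR, FDR = 0.00110) and miR-143-3p (1.82 ± 0.32, edgeR, FDR = 0.0129), of which the latter had an edgeR FDR of 0.0504 without CMm-EV 2. With library size only they were at 3.72 and 1.22, and let-7f-5p was at 4.93 without CMi-EV 2. Over both ends 7 of 13 rose and 1 fell, with a median of 1.56. The member called lower was miR-126-5p of endothelial cells, whose mean was 46.3 CPM in hiPSC-EV, against 4.54 CPM in CMm-EV. It passed the CPM minimum only through hiPSC-EV, and its call was lost with filterByExpr (edgeR, FDR = 0.0667), no filter (edgeR, FDR = 0.0775) or the replicate block (edgeR, FDR = 0.117). The call was also lost without any 1 of hiPSC-EV 1, hiPSC-EV 2, hiPSC-EV 3 or CMm-EV 2 (edgeR, FDR between 0.0716 and 0.109), so nothing is read from it. The largest rises were those of miR-143-3p (8.76 ± 0.37, edgeR, FDR = 2.83e-05), miR-145-5p (4.54 ± 0.73, edgeR, FDR = 0.00301), let-7f-5p (3.16 ± 0.38, edgeR, FDR = 0.000852) and miR-24-3p (2.73 ± 0.32, edgeR, FDR = 0.000696). miR-145-5p was at 5.20 without hiPSC-EV 3.

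**Figure D4:**
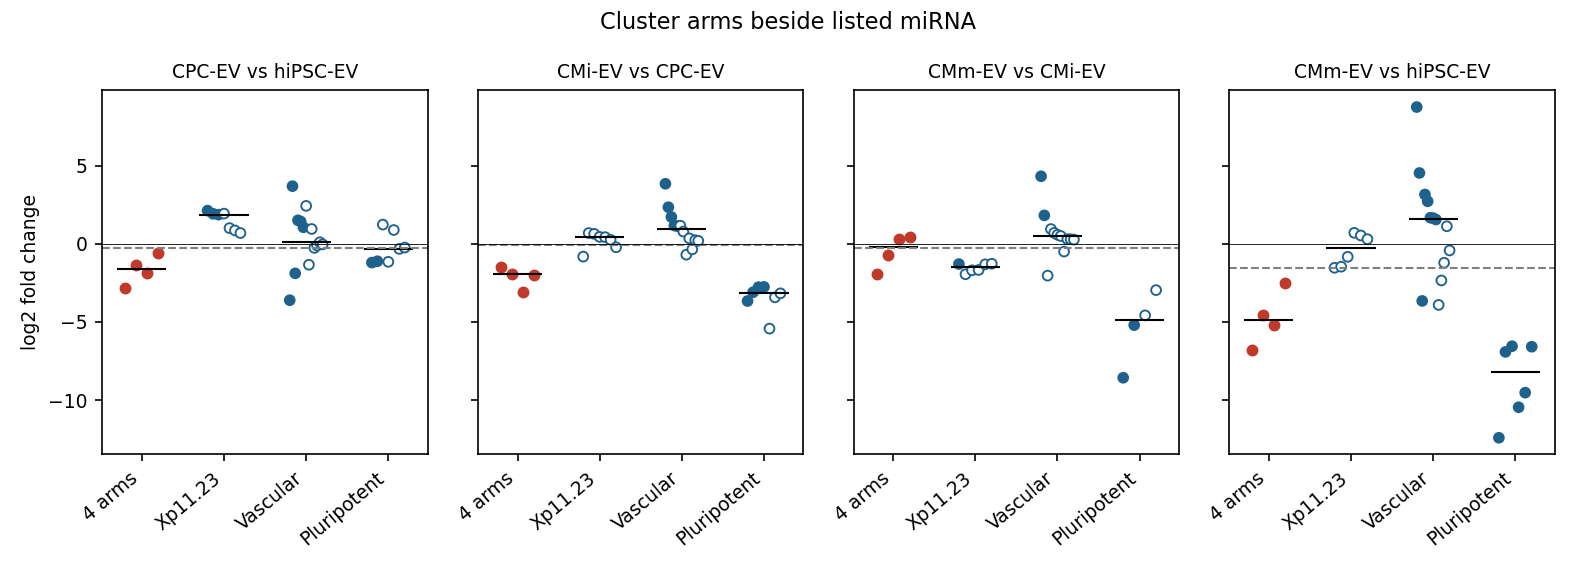
log2 fold change (vertical) of the 4 arms and of the tested members of the Xp11.23, vascular and pluripotent lists (horizontal) in the 4 comparisons, with a short line at each median, a dashed line at the median of all miRNA tested, filled blue points for DE miRNA, open points for the others, and red points for the 4 arms, for which no call is given. A member with no read in a group is drawn at its bound against 3 counts. From hiPSC-EV to CPC-EV the median is 1.87 for the Xp11.23 list and 0.11 for the vascular list.

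Markers of cell types moved between the same groups. The 8 pluripotent miRNA, all in the count table and led by miR-302b-3p, summed to 171525, 177609 and 209743 CPM in hiPSC-EV, 70458, 78609 and 48469 CPM in CPC-EV, 5425, 6736 and 3989 CPM in CMi-EV and between 114 and 301 CPM in the 3 libraries of CMm-EV. Their sum fell at each step, but in CPC-EV against hiPSC-EV, where 3 arms of the cluster were lower, 2 of 7 tested members were called lower, with a median of -0.32 against -0.27 over all miRNA tested. Called lower were 4 of 7 in CMi-EV against CPC-EV, 2 of 4 in CMm-EV against CMi-EV and 6 of 6 over both ends. Of the members tested in these comparisons, 3, 3 and 5 passed the CPM minimum only through the earlier group. In CMi-EV against CPC-EV none of the 3 was called, and the 4 called members passed in both groups. The counts in CMm-EV against CMi-EV and over both ends are in part fixed by the filter. The 6 cardiomyocyte miRNA, led by miR-1-3p, summed to 64.8, 46.4 and 69.5 CPM in hiPSC-EV, 754, 856 and 1515 CPM in CPC-EV, 52464, 75364 and 20729 CPM in CMi-EV and 37700, 51274 and 215490 CPM in CMm-EV. What part these changes in the cells had in the levels of the cluster was not tested.

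The endothelial markers miR-126-3p and miR-126-5p, of which the first was the more abundant, summed to 76.4, 90.0 and 115 CPM in hiPSC-EV, 49.0, 66.0 and 93.8 CPM in CPC-EV, 54.9, 65.9 and 70.8 CPM in CMi-EV and 0, 21.4 and 26.9 CPM in CMm-EV. Between CPC-EV and CMi-EV, where miR-222-3p had its largest step, neither of them passed. Of 6 endothelial transcripts PECAM1 and EGFL7 were not among the rows, CDH5 had a single count, in CMi-EV 2, and KDR, the most abundant, had 225 counts over all 12 libraries. The 6 summed to 21, 48 and 63 counts in hiPSC-EV, 1, 96 and 0 in CPC-EV, 0, 1 and 0 in CMi-EV and 1, 0 and 57 in CMm-EV. KDR had 21, 40 and 55 counts in hiPSC-EV, 52 in CPC-EV 2 and 57 in CMm-EV 3, and VWF had 44 counts in CPC-EV 2. The part of endothelial cells in the levels of the cluster was not tested.

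Of 5 blood and serum miRNA 4 were in the count table, and their sums were nearly those of miR-486-5p, with 5291, 7130 and 8657 CPM in hiPSC-EV, 937, 855 and 1148 CPM in CPC-EV, 2046, 2075 and 726 CPM in CMi-EV and 828, 768 and 905 CPM in CMm-EV. This list, like the cluster, was highest in hiPSC-EV, and its 1 tested member fell in CPC-EV against hiPSC-EV. miR-223-3p was not among the rows, and miR-144-3p had reads in 1 library. miR-150-5p had reads in 2 libraries, and miR-451a in 6, with a mean of 7.00 CPM over all libraries. The paper lists miR-486 among the miRNA of striated muscle, and describes the medium of the undifferentiated cells as free of animal components. The part of serum in the levels of the cluster was not tested.

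Of 5 smooth muscle and fibroblast miRNA 4 were in the table, led by miR-143-3p, and they summed to 236, 277 and 479 CPM in hiPSC-EV, 2184, 2341 and 4453 CPM in CPC-EV, 34751, 33280 and 61464 CPM in CMi-EV and 132223, 165152 and 212166 CPM in CMm-EV. Their sum, by the mean over the 12 libraries nearly all of it miR-143-3p, rose at each step. The mean of miR-199a-5p was lower in CMm-EV than its 291 CPM in CMi-EV, which came from CMi-EV 3 alone. In CMi-EV 1 and CMi-EV 2 it had no read, so that without CMi-EV 3 the direction turns, and none is given. The sum of the 4 arms fell up to CMi-EV, with a course from there to CMm-EV that depends on the scaling. The endoderm miRNA, 4 of 5 names in the table and led by miR-192-5p in the mean over the 12 libraries, summed to 1297, 1818 and 2244 CPM in hiPSC-EV, 6930, 8840 and 6284 CPM in CPC-EV, 3752, 3459 and 7196 CPM in CMi-EV and 2786, 2236 and 4611 CPM in CMm-EV. In CPC-EV miR-375-3p led with a mean of 4020 CPM, against 469 CPM in CMi-EV and 12.7 CPM in CMm-EV. The means of miR-122-5p in these 3 groups were 723, 859 and 746 CPM. Neither list was tested for a part in the levels of the cluster.

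Transcript fragments in the same libraries were sparse. Of the host transcripts, MIR222HG had 2 counts in CMi-EV 2 and none in the 11 other libraries, which is below the floor of 3 counts, and MIR221 and MIR222 were not among the rows. A change of the host transcript was thus not detectable at this depth. Of 18 messengers known as targets of miR-221 and miR-222, all had at least 1 count, 4 had counts in 6 or more libraries, and 2, BBC3 and MDM2, reached 5 CPM in every library of a group.

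No target had counts in more than 7 of the 12 libraries. CDKN1B, the cell cycle inhibitor p27, had 16 counts in CPC-EV 1 and none in the other 2 CPC-EV libraries, 38 and 31 counts in CMi-EV 2 and 3, and none elsewhere, and CDKN1C had 140 of its 166 counts in CPC-EV 2. KIT had 9 counts in hiPSC-EV 3, 8 in CPC-EV 1 and 23 in CPC-EV 2. BBC3, a pro-apoptotic gene, had 8, 13 and 20 counts in hiPSC-EV and 1 count over the 9 other libraries, and MDM2, the most widespread target, had 30, 85 and 90 counts in hiPSC-EV, 39 in CPC-EV 2, 21 and 75 in CMi-EV 1 and 2, and 4 in CMm-EV 3. The 18 targets summed to 63, 201 and 300 counts in hiPSC-EV, 106, 479 and 177 in CPC-EV, 23, 243 and 31 in CMi-EV and 73, 270 and 46 in CMm-EV, out of 131423 to 1908539 counts on transcripts per library. At such counts a relation between the cluster and its targets was not detectable, and fragments in vesicles are not a measure of the messengers in the cells.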

How the data were processed

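Small RNA of 12 EV preparations, 3 from independent cultures in each of 4 groups, was analysed from tables of the authors. The deposited expected counts per miRNA and per gencode transcript came from the authors' exceRpt pipeline on hg38, and were rounded to whole counts. The RPM deposited by the authors, reads scaled to library totals, gave those totals for 1 alternative. The submitters' processing notes name edgeR 3.24.0.

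CPM were scaled with TMM factors from all 12 libraries, on the expressed miRNA. Each comparison used only its own 6 libraries and a two-sided quasi-likelihood test in edgeR 4.0.16 (R 4.3.3), for those miRNA that reached 5 CPM in every library of 1 group or more, adjusted by the Benjamini-Hochberg method. The code was tested on simulated counts. SE came from the weighted information and the posterior quasi-dispersion. Ratios of members were planned to be tested by exact permutation, and these tests were run and set aside, since the members had been chosen with their levels in the same groups known. Shares have exact Clopper-Pearson intervals (95%), in Python 3.11.15 with scipy 1.17.1. The replicates are cultures of 1 line, so p-values measure the spread between its cultures.

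Alternatives were median-of-ratios factors, library size only, the library totals behind the RPM, no filter, filterByExpr, DESeq2 1.42.0, a replicate block, other pseudocounts, and each library left out. The members and lists were chosen with earlier results of these data known. Named miRNA were the 4 arms, the 5 profiles closest to each 3p arm, and in each of the vascular and Xp11.23 lists the most abundant member and up to 5 DE miRNA with the largest log2 fold change. Marker and target lists were given as sums or counts. miRNA with the same seed were sought in RefSeq on GRCh38.p14. Tests on gencode transcripts were planned and run, and were set aside after their calls had been seen to depend on the filter.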

Additional observations from a re-analysis of the deposited data

How the results depend on the processing

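The log2 fold changes of the 4 arms kept their direction and moved by less than the SD between replicates in 197 refits, moved by more in 5 and changed sign in 6. miR-221-3p, miR-221-5p and miR-222-3p were below 0 under every alternative in 9 of 9 arm and comparison pairs other than those of CMm-EV against CMi-EV. In CMm-EV against CMi-EV, miR-222-3p (main value 0.29) was at -0.38 and miR-222-5p (0.43) at -0.19 with library size only. With each library left out in turn they ranged from -0.0673 to 0.63 and from -0.20 to 1.00. miR-222-5p in CPC-EV against hiPSC-EV (-0.56) ranged from -0.94 to 0.66. The cause was not tested.

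Summed over both directions, counts of DE miRNA stayed within 1.5 times the main count but for CMm-EV against CMi-EV (41), with 27 under filterByExpr and 20 to 60 with a library left out, and for the replicate block. With the replicate block, miR-221-3p moved by more than 1.5 times in the fold, to -2.86 in CMm-EV against CMi-EV and -7.42 over both ends, as did miR-222-5p, to -2.66 in CMi-EV against CPC-EV. With the replicate number as a block, CPC-EV against hiPSC-EV gave 39 instead of 93 and CMm-EV against CMi-EV 17 instead of 41, while the counts were 68 instead of 83 and 137 instead of 180 in CMi-EV against CPC-EV and over both ends. Over 18 pairs of libraries with the same number, the correlation of deviations from the group means was between -0.12 and 0.0975, and 0 of 12 libraries correlated best with their own number in every other group, so the numbers do not pair the libraries. The difference between the highest and the lowest group mean of the log2 ratio was 3.34 for miR-221-3p to miR-222-3p and 3.13 for miR-221-3p to miR-221-5p. With a library left out it was 2.03 to 4.31 and 1.69 to 4.43, with both lowest values without CMm-EV 1. The cause was not tested.

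Alternatives for the named vascular and Xp11.23 miRNA were added after seeing the data. In 273 of them, 237 calls were kept, 36 were lost and none was reversed. Of tests on transcripts, CMi-EV against CPC-EV gave 731 calls in the main fit and 2 with filterByExpr. In 1 direction, the 16 higher and 25 lower of CMm-EV against CMi-EV became 12 and 15 with filterByExpr, 10 and 32 without CMi-EV 1, 25 and 35 without CMi-EV 3, and 7 and 13 without CMm-EV 2. Depth limits miR-221-3p in CMm-EV 1, where 3 counts are 3.63 CPM, miR-222-5p in CMi-EV 2, with 0 counts, and the target and host transcripts. Each group has 3 cultures of 1 line, and the vesicles of other lines were not analysed here.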
